A study of Homo sapiens with 6 samples.

Results

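Of 10 listed target genes of the co-activators YAP and TAZ, 7 could be read among 14884 measured genes in SKOV3, a long-established line of human ovarian cancer cells. They were taken by symbol from the platform annotation: CCN2, ANKRD1, AJUBA, AMOTL1, AMOTL2, TEAD1 and CRIM1, each read from the probe set whose mean over the 6 arrays was highest. CCN1, LATS2 and F3 had no annotated probe set, by symbol or by gene identifier, and are not analysed here. The 3D cells had spent 11 days on low-attachment 96-well plates with the additive FP001 at 0.015% (w/v), known here only by its code name (n = 3 arrays). The 2D cells had spent the same 11 days on attachment plates with Milli-Q water in place of FP001 (n = 3 arrays). Both groups were kept in McCoy's 5A medium with 15% serum. Because the 3D cells differed in both plate and additive, the effects of plate and additive cannot be told apart. The labels do not say whether the arrays of a group came from separate cultures, and p-values then measure only the spread between these arrays, which may be technical.

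YAP, and TAZ, which the gene WWTR1 encodes, are transcriptional co-activators that enter the nucleus when cells are spread and under tension. They bind DNA through the TEAD factors. Of the Hippo kinases, LATS phosphorylates YAP and TAZ, which holds them in the cytoplasm, and MST acts upstream of LATS. Several of their target genes encode regulators of the same pathway, among them the angiomotins AMOTL1 and AMOTL2, which bind YAP, and AJUBA, a LIM protein that binds and restrains the LATS kinases. Other targets act outside the cell, such as the matricellular protein CCN2.

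In 3D cells, 6 of the 7 target genes were lower than in 2D cells at an adjusted p under 0.05 (limma, Benjamini-Hochberg over all genes), against 4.77% of all genes. The median change of the 7 genes was -1.21 on the log2 scale, against -0.01 over all genes. Of the 7 genes, 4 fell at least 2-fold (AJUBA, ANKRD1, CCN2 and CRIM1), against 1.14% of all genes. All 7 had each 3D array below each 2D array, which 15.3% of all genes had. AMOTL1 did not pass the test, and TEAD1 passed just inside the threshold (limma adjusted p = 0.0497). With any single array left out, 4 to 5 of the 7 genes passed as lower, beside 349 to 803 of all 14884 genes. The genes were chosen with earlier results of these data known, so these shares are a description and not a test of the list. Fewer expressing cells and less RNA per cell cannot be told apart in these whole-culture samples.

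**Figure D1:**
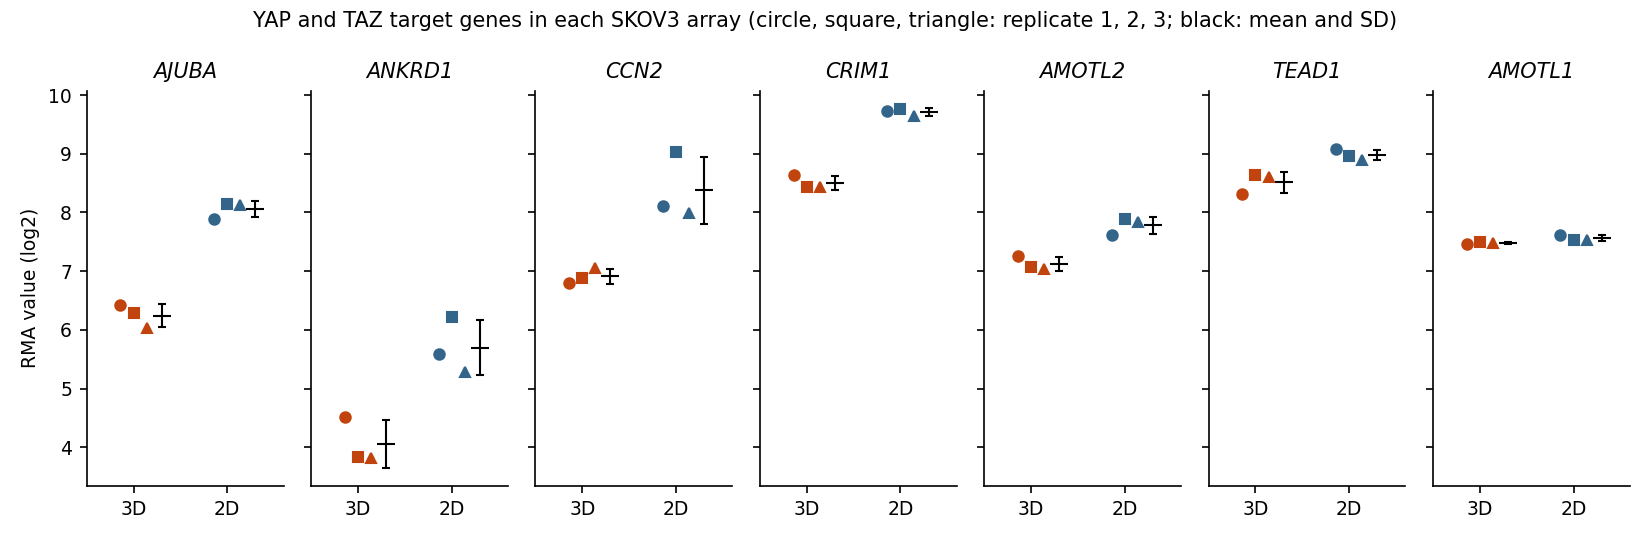
RMA values (log2, vertical axis) of the 7 target genes in the 3 arrays of 3D and the 3 arrays of 2D culture, with the mean and SD of each group in black. In AJUBA, ANKRD1, CCN2 and CRIM1 the groups lie far apart, and in AMOTL1 they nearly touch; levels of different genes come from different probe sets and cannot be set against each other.

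The DNA letters bound by TEAD factors were looked for in the 250 bases before the RefSeq starts of the listed target genes, to show where such letters lie. The promoter table (GRCh38.p14) held 9 such windows for 7 of the 10 listed genes: CCN2, ANKRD1, AJUBA, AMOTL1, AMOTL2, LATS2 and F3, with a pair of starts each for AJUBA and AMOTL2. LATS2 and F3 were not measured and AMOTL1 did not pass, while CRIM1 and TEAD1, which fell, had no window. The letters searched were GGAATG on either strand, which reads CATTCC when it lies on the opposite strand. They were found in 4 of the 9 windows, and in 11.9% of the 35116 RefSeq windows of this length. The 4 windows are printed 5′ to 3′ on the gene's strand, each ending at the base before the start, with those letters in capitals. They are the windows of CCN2 (chr6:131951373-131951622, minus strand), of ANKRD1 (chr10:90921088-90921337, minus strand), of the downstream start of AJUBA (chr14:22976843-22977092, minus strand) and of the downstream start of AMOTL2 (chr3:134374448-134374697, minus strand).
CCN2: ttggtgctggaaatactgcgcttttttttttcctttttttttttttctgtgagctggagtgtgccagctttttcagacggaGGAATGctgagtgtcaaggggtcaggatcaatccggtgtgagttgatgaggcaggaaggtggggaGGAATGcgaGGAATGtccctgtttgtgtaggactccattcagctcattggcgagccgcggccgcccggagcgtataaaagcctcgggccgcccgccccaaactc
ANKRD1: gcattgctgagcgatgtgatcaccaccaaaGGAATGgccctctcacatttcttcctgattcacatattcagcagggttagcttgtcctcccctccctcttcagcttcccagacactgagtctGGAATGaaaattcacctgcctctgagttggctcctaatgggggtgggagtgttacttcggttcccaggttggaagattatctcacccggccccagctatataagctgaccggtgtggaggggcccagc
AJUBA: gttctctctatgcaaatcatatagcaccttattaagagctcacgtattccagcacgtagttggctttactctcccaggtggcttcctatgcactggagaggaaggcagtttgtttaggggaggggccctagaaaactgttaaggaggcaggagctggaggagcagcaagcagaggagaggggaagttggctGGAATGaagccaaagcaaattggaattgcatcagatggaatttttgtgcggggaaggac
AMOTL2: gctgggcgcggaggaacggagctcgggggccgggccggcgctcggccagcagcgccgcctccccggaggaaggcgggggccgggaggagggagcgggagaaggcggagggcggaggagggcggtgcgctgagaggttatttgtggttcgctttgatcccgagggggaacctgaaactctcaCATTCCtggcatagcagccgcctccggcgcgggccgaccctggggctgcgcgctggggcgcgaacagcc

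CCN2 held 3 copies, with first bases 169, 104 and 95 bases before the start, and 3 or more copies stood in 0.0826% of all windows. ANKRD1 held 2 copies, with first bases 220 and 128 bases before its start, and 2 or more stood in 0.94% of windows. AJUBA and AMOTL2 each held 1, at 59 and 69 bases before the downstream start. The letters of the AP-1 factors, TGANTCA, stood in 6.57% of all windows. Among the measured target genes ANKRD1 held them once, at 195 bases before its start, and F3, which was not measured, held them at 223 and 210 bases. The CArG box of the serum response factor stood in 1.16% of all windows and in none of the 9. These matches describe letters in one window and do not show binding; no match says only that the letters are not there.

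**Figure D2:**
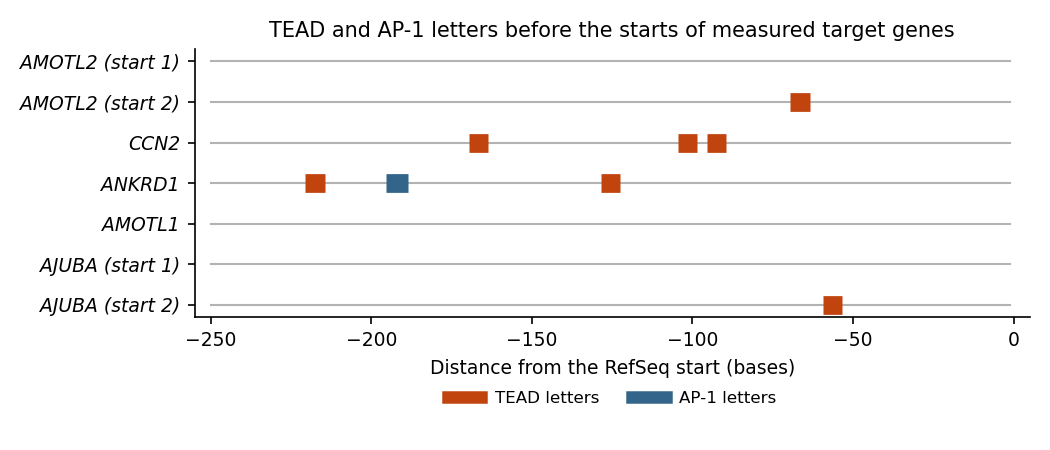
Position of TEAD letters (orange) and AP-1 letters (blue) in the 250 bases before each RefSeq start (horizontal axis, distance in bases) of the measured target genes in the promoter table. CCN2 carries 3 TEAD matches and ANKRD1 2, and AMOTL1 carries neither kind.

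CCN2, the secreted matricellular protein also called connective tissue growth factor, is a standard readout of YAP activity. Its values were 6.80, 6.88 and 7.06 in 3D culture, against 8.10, 9.03 and 7.99 in 2D culture. The 3D arrays lay close together, while 2D replicate 2 stood above the other 2D arrays, and the groups did not overlap. CCN2 fell 2.75-fold, a log2 change of -1.46 ± 0.26 (SE, n = 3 per group, limma adjusted p = 0.0120). Leaving out 2D replicate 2 gave a change of -1.13 (limma adjusted p = 0.00478). A second, dim probe set of CCN2 read 2.52, 3.37 and 2.56 in 3D and 3.32, 4.46 and 3.13 in 2D, so its groups overlapped. Its change was -0.82 ± 0.40 (SE, n = 3 per group, limma adjusted p = 0.444 over all probe sets). Its mean over the 3D arrays, 2.81, lay under the mean lower quartile of the arrays (2.93). Averaged over both probe sets, CCN2 did not pass (-1.14, limma adjusted p = 0.0536).

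ANKRD1 encodes a nuclear ankyrin repeat protein. It read 4.52, 3.83 and 3.81 in 3D culture, against 5.59, 6.21 and 5.29 in 2D culture. Of the 3D arrays, replicate 1 was the highest, and 2D replicate 2 was the highest of the 2D arrays. The mean of ANKRD1 over the 3D arrays, 4.05, lay under the mean median of the arrays (4.33). ANKRD1 fell 3.13-fold, a log2 change of -1.64 ± 0.27 (SE, n = 3 per group, limma adjusted p = 0.00903). The change ran from -1.88 without 3D replicate 1 to -1.39 without 2D replicate 2, and it passed without any single array (limma adjusted p up to 0.0402).

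AJUBA had values of 6.42, 6.28 and 6.03 in 3D, against 7.90, 8.14 and 8.12 in 2D. This LIM protein links cell junctions and the actin cytoskeleton to LATS. Its groups were 1.47 log2 units apart at their nearest arrays, the widest such gap of the 7 genes. AJUBA fell 3.51-fold, a log2 change of -1.81 ± 0.13 (SE, n = 3 per group, limma adjusted p = 0.00026), and had the 40th lowest change of all 14884 genes. ANKRD1, CCN2 and CRIM1 stood at ranks 56, 75 and 115 in that order.

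CRIM1 encodes a transmembrane protein with cysteine-rich repeats that binds bone morphogenetic proteins. It read 8.64, 8.44 and 8.43 in 3D culture and 9.73, 9.76 and 9.64 in 2D culture. The arrays of each group lay close together (SD 0.12 in 3D and 0.06 in 2D), and the groups did not overlap. CRIM1 fell 2.31-fold, a log2 change of -1.21 ± 0.10 (SE, n = 3 per group, limma adjusted p = 0.000427). The 95% intervals of the changes overlapped among AJUBA (-2.12 to -1.51), ANKRD1 (-2.28 to -1.01) and CCN2 (-2.06 to -0.86), and that of CRIM1 (-1.44 to -0.97) overlapped those of ANKRD1 and CCN2.

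The angiomotins AMOTL1 and AMOTL2 are paralogs that tether YAP at junctions and on actin. AMOTL2 read 7.26, 7.07 and 7.04 in 3D, against 7.61, 7.88 and 7.84 in 2D. Every 3D array lay below every 2D array, with a gap of 0.35. AMOTL2 fell 1.58-fold, a log2 change of -0.66 ± 0.12 (SE, n = 3 per group, limma adjusted p = 0.0115). It no longer passed when 3D replicate 2 or 3 or 2D replicate 2 or 3 was left out, with a limma adjusted p of 0.0509 to 0.0545 and a change between -0.63 and -0.60. AMOTL1 read 7.47, 7.50 and 7.47 in 3D, against 7.62, 7.54 and 7.53 in 2D. Its groups were separated by 0.02 only, and the change was -0.08 ± 0.09 (SE, n = 3 per group, limma adjusted p = 0.674), with a 95% interval of -0.28 to 0.12. A second AMOTL1 probe set gave 4.04, 4.70 and 4.87 in 3D, against 4.92, 4.99 and 4.92 in 2D, a change of -0.40 that did not pass (limma adjusted p = 0.506 over all probe sets). 3D replicate 1 was the lowest of these values.

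TEAD1, one of the DNA-binding partners of YAP and TAZ, read 8.31, 8.63 and 8.60 in 3D culture, compared with 9.07, 8.95 and 8.90 in 2D culture. 3D replicate 1 was the lowest array and the groups did not overlap. TEAD1 fell 1.37-fold, a log2 change of -0.46 ± 0.12 (SE, n = 3 per group), at a limma adjusted p of 0.0497, just inside the threshold. Leaving out any of the 6 arrays ended the call, with a limma adjusted p of 0.0617 (without 3D replicate 1, change -0.36) to 0.143 (without 2D replicate 1, change -0.41).

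**Figure D3:**
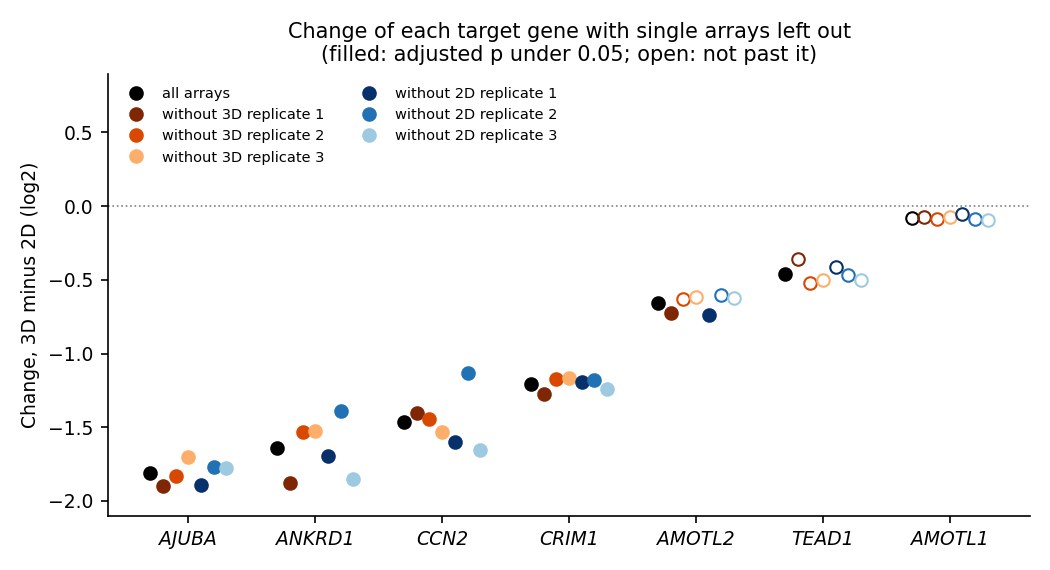
Change of each target gene, 3D minus 2D (log2, vertical axis), over all arrays and with each array left out. AJUBA, ANKRD1, CCN2 and CRIM1 keep an adjusted p under 0.05 in every such fit (filled points), TEAD1 only over all arrays, and AMOTL1 does not pass in any (open points).

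Tested as single probe sets over all 53617 probe sets of the array, 3 of the 9 probe sets of the target genes passed as lower (AJUBA, ANKRD1 and CRIM1), against 1.02% of all probe sets. The best probe sets of CCN2 and AMOTL2 then had limma adjusted p-values of 0.0517 and 0.0547, and that of TEAD1 0.164. The exact two-sided permutation test over the 6 arrays gave p = 0.1 for each of the 7 genes, the smallest it allows with 3 against 3.

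Each gene was also centred on its own mean, and the 7 were averaged per array. These averages were -0.44, -0.55 and -0.58 in 3D culture, against 0.45, 0.72 and 0.40 in 2D culture. On the highest array, 2D replicate 2, CCN2 and ANKRD1 stood 0.66 and 0.51 above their 2D means. AMOTL1 and TEAD1 lay slightly below their 2D means on that array. Over all genes, 3D replicate 1 stood apart from the other 3D arrays (correlation across genes 0.988 with each, against 0.995 between them). It gave higher values than both other 3D arrays for ANKRD1, AJUBA, AMOTL2 and CRIM1, and lower values for CCN2, AMOTL1 and TEAD1. Without it, 5 of the 7 genes passed as lower, beside 803 of all 14884 genes.

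**Figure D4:**
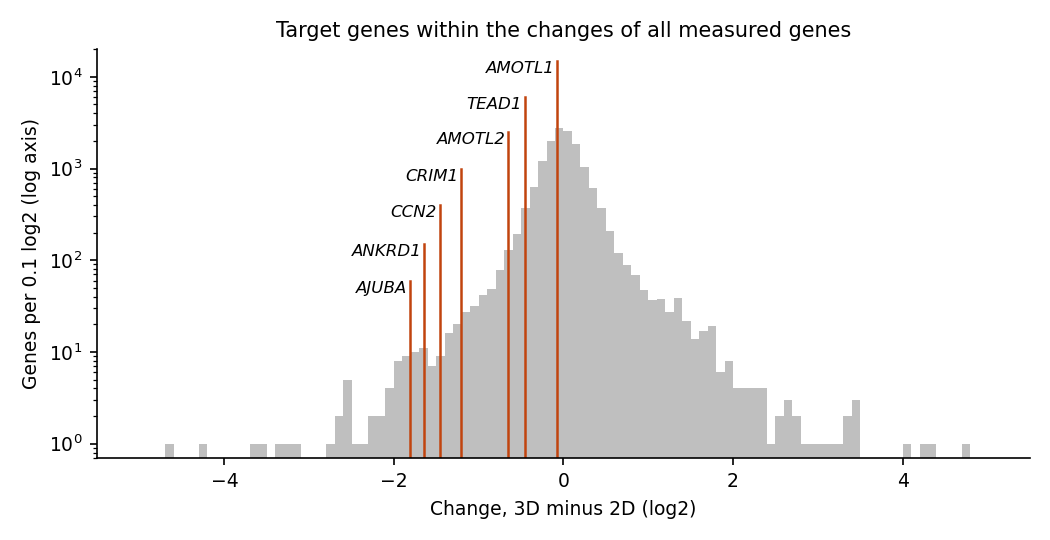
Distribution of the changes of all 14884 genes, 3D minus 2D (log2, horizontal axis; number of genes on a log axis), with the 7 target genes marked by orange lines. AJUBA, ANKRD1, CCN2 and CRIM1 lie in the lower tail, AMOTL2 and TEAD1 on its shoulder and AMOTL1 in the centre.

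The co-activators showed no change that passed the test. YAP1 read 9.33, 9.18 and 9.44 in 3D, against 9.11, 9.27 and 9.10 in 2D, so the groups overlapped, and its change was 0.16 (95% interval -0.09 to 0.40, limma adjusted p = 0.458). Its sign depended on the probe set, since the more variable of its 2 probe sets gave -0.17. WWTR1 gave 0.11 (95% interval -0.10 to 0.32, limma adjusted p = 0.542). These intervals bound the mRNA only, and the activity of YAP and TAZ is mostly set by phosphorylation and location, which arrays do not measure. The other TEAD genes gave -0.36 for TEAD3, -0.32 for TEAD4 and 0.21 for TEAD2 (limma adjusted p = 0.0721, 0.157 and 0.335). TEAD3 passed without 3D replicate 1 (-0.41, limma adjusted p = 0.0446), and with dim probe sets left out (0.0446) or a trended robust variance (0.0403). VGLL4, a competitor of YAP for TEAD, gave 0.16 (adjusted p = 0.357).

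Of the 19 measured genes on the list of co-activators and nuclear partners 3 fell and 16 did not pass (limma), with a median of -0.13. Of all genes, 4.77% fell and 5.23% rose. Without 3D replicate 1, 6 genes of this list fell and 1 rose, beside 803 lower and 1096 higher of all 14884 genes. At an unadjusted p under 0.05, 7 were lower and 1 higher, against 11.9% lower and 11.5% higher of all genes. The 3 genes that fell over all arrays encode transcription factors that act with YAP, TAZ or TEAD. RUNX2, the bone lineage factor, fell by 1.52 ± 0.17 (log2, SE, n = 3 per group). FOSL2 fell by 1.29 ± 0.12 and FOSL1 by 1.02 ± 0.12, both AP-1 subunits. The AP-1 genes FOS (1.53 ± 0.41) and JUN (-0.75 ± 0.20), named after their values were seen, had opposite signs and did not pass (limma adjusted p = 0.0568 and 0.0582).

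Upstream, 32 of 43 listed Hippo kinases, adaptors and regulators were measured, and 4 fell, 2 rose and 26 did not pass (limma), against 4.77% lower and 5.23% higher of all genes. The median change was -0.05. LATS1 is not analysed here. Those that fell were AMOT, the third angiomotin (-0.82 ± 0.14 SE, n = 3 per group), the scaffold genes WWC2 (-0.79 ± 0.10) and WWC1, also called KIBRA (-0.57 ± 0.09), and the kinase gene MAP4K4 (-0.46 ± 0.10). AMOT was dim, with 3.81, 3.49 and 3.46 in 3D, against 4.49, 4.53 and 4.19 in 2D. The atypical cadherin genes FAT1 (0.46 ± 0.10) and DCHS1 (0.50 ± 0.12) rose, and 2 risers of 32 genes are near the background of 5.23%. WWC2 had values of 8.07, 7.99 and 7.93 in 3D, against 8.86, 8.83 and 8.68 in 2D, with no overlap. NF2, the gene of the Hippo activator merlin, gave -0.45 ± 0.12 at a limma adjusted p of 0.0507, and passed with repeated quantile normalization (0.0327), without dim probe sets (0.0316) and with a trended robust variance (0.0144). The MST kinase genes STK3 (0.30) and STK4 (-0.04) did not pass (limma adjusted p = 0.164 and 0.882).

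Calls of AMOT, WWC1 and WWC2 held without any single array. That of MAP4K4 was lost without replicate 1 or 3 of 2D or replicate 2 or 3 of 3D (limma adjusted p up to 0.11), that of FAT1 without any array except 3D replicate 1 (up to 0.115), and that of DCHS1 without any except 3D replicate 2 (up to 0.138). The mean of the 3 probe sets of DCHS1 gave 0.15 (limma adjusted p = 0.39).

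**Figure D5:**
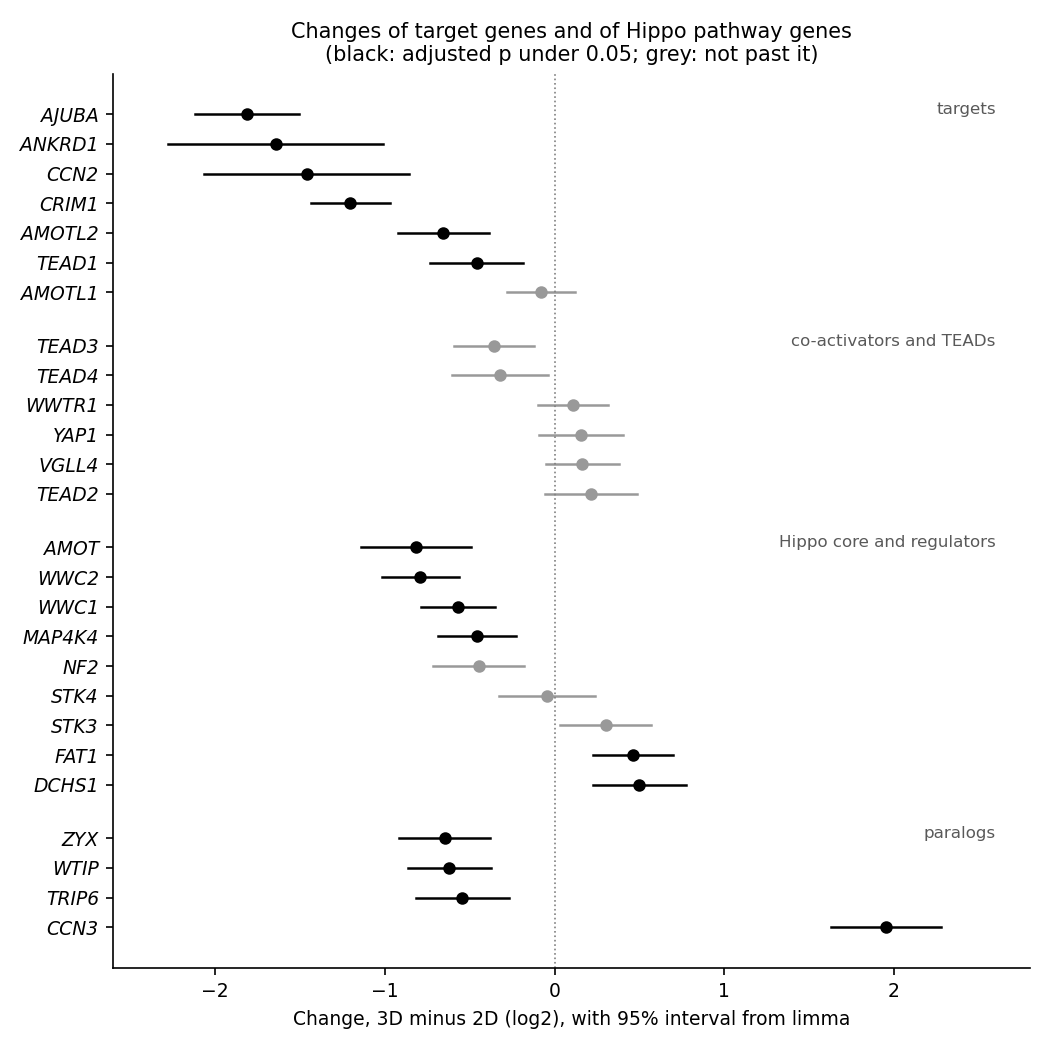
Change, 3D minus 2D (log2, horizontal axis), with its 95% interval for the 7 target genes, the co-activators and TEAD partners, Hippo regulators and paralogs of the target genes. Black points passed an adjusted p of 0.05 and grey points did not; CCN3 (1.95) stands opposite to CCN2 (-1.46).

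The target genes were set beside the paralogs that share their protein families. Of 18 measured paralogs 4 fell, 1 rose and 13 did not pass (limma), against 4.77% lower and 5.23% higher of all genes, and the single riser is near that background. The median was -0.15. AMOT, which fell, is also on the Hippo list, and TEAD2, TEAD3 and TEAD4 are also on the list of nuclear partners. In the CCN family, CCN3 rose 3.87-fold while CCN2 fell. CCN3 read 8.75, 9.17 and 8.98 in 3D, against 6.94, 7.20 and 6.90 in 2D, so that the groups lay far apart, and its change was 1.95 ± 0.14 (SE, n = 3 per group, limma adjusted p = 0.00025). CCN4, CCN5 and CCN6 gave changes between -0.03 and 0.11 and did not pass, and they were named after their values were seen. Of the relatives of AJUBA, ZYX (-0.65 ± 0.11), WTIP (-0.62 ± 0.11) and TRIP6 (-0.54 ± 0.12) fell, and LIMD1 and LPP, named after their values were seen, gave -0.30 each without passing (limma adjusted p = 0.11 and 0.163). ZYX did not pass once 2D replicate 2 or 3 was left out (limma adjusted p up to 0.0526), nor did TRIP6 without 3D replicate 1 or 2 or 2D replicate 2 or 3 (up to 0.109). The ankyrin repeat paralogs of ANKRD1, ANKRD2 (-0.03) and ANKRD23 (-0.01), did not pass and were likewise named after their values were seen. Without 2D replicate 2 or 2D replicate 3, 2 paralogs fell, beside 406 and 400 of all 14884 genes.

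Of 15 further genes of a widely used YAP and TAZ signature 8 were measured, and 3 fell, 1 rose and 4 did not pass (limma), against 4.77% lower and 5.23% higher of all genes. The median was -0.43. AXL, a receptor tyrosine kinase gene, had 8.15, 8.16 and 7.98 in 3D, against 10.81, 10.60 and 10.63 in 2D. CCDC80, encoding a secreted matrix protein, fell by 1.64 ± 0.14 (log2, SE, n = 3 per group) and the forkhead gene FOXF2 by 0.82 ± 0.09. IGFBP3, which binds insulin-like growth factors, rose by 0.50 ± 0.10, and lost its call without 2D replicate 1 or 2 or 3D replicate 2 or 3 (limma adjusted p up to 0.0831). MYOF, ARHGEF17, FJX1 and DOCK5 did not pass and were named after their values were seen, with changes from -0.48 to 0.07.

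F3, the tissue factor gene, starts clotting and signals through protease-activated receptors; it was not measured, but 9 of 14 listed partners were. Of these, 3 fell and 6 did not pass (limma), against 4.77% lower and 5.23% higher of all genes. At an unadjusted p under 0.05, 3 were lower and 1 was higher, against 11.9% and 11.5% of all genes. Their median change was -0.16. F2R, the thrombin receptor gene, read 7.77, 7.54 and 7.49 in 3D, against 9.40, 9.83 and 9.56 in 2D, and fell 3.99-fold (limma adjusted p = 0.000221). Its groups lay far apart. F2RL2, a related receptor gene, fell by 0.85 ± 0.17 (log2, SE, n = 3 per group) and the prothrombin gene F2 by 0.47 ± 0.10. The level of F2 was low, with means of 4.36 in 3D and 4.83 in 2D beside a mean array median of 4.33. F2RL2 lost its call without 2D replicate 2 or 3D replicate 3 (limma adjusted p up to 0.0689), and F2 without any array except 3D replicate 1 (up to 0.111). Single left-out arrays gave 1 fallen partner (2D replicate 2 or 3D replicate 3) to 3, beside 349 to 803 lower of all 14884 genes.

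The 5 genes whose values followed the mean of the centred target genes most closely over the 6 arrays were DCLK2 (Pearson r 0.997), ALOX15P1 (0.996), CPA4 (0.996), CAMSAP1 (0.995) and F2R (0.995). This is a description over 6 arrays that share the split into 3D and 2D. CPA4, a carboxypeptidase gene, had the largest change of the 5 at -2.69 ± 0.20 (SE, n = 3 per group). CAMSAP1, a microtubule minus-end gene, changed by -0.31 and did not pass (limma adjusted p = 0.0635).

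Markers were read to check the cells. Beside the counts that follow, 4.77% of all genes were lower and 5.23% higher in 3D at an adjusted p under 0.05 (limma). Of 8 measured markers of SKOV3 and epithelial carcinoma, KRT19 (2.70) and EPCAM (1.76) rose, KRT7 (-0.93) fell and 5 did not pass, and the mean level of that list was 8.06 to 8.21 in 3D, against 7.64 to 7.72 in 2D. Among those that did not pass, PAX8, a lineage factor of Müllerian tissue, averaged 10.34 in 3D and 10.18 in 2D. KRT18, a simple epithelial keratin gene, averaged 10.06 in 3D and 9.61 in 2D. VIM averaged 8.78 in 3D and 9.15 in 2D, KRT8 5.82 and 5.66, and WT1 5.20 and 5.25. VIM had each 3D array below each 2D array (-0.37, limma adjusted p = 0.0501). ERBB2 is not analysed here. Of 4 measured leukocyte markers LYZ (1.83) and CD68 (0.68) rose, and CD14 and NKG7 did not pass. The mean level of the list was 5.80 to 6.05 in 3D, against 5.29 to 5.50 in 2D. CD68 was by far the brightest of the 4, with a mean of 9.75 in 3D and 9.06 in 2D. PTPRC is not analysed here. Of 5 fibroblast and endothelial markers PECAM1 (1.27) rose, and the mean was 4.20 to 4.46 in 3D, against 4.03 to 4.13 in 2D. The part of these differences in the target gene results was not tested.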

How the data were processed

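Total RNA (100 ng) was labelled with biotin by a 3′ IVT kit, per the labels' protocols, and hybridised to 1 array per sample. The deposited table holds log2 values made with RMA, per the submitters' processing notes, for 53617 probe sets on 6 arrays; their software version and filters were not stated in those notes. The values lay between 0.30 and 13.87, which is how their log2 scale was recognised. RMA compresses fold changes of dim probe sets. Without detection calls, none of the genes could be called absent. The number of arrays limits the precision. In the platform annotation 16098 probe sets carried 1 symbol, 0 several and 37519 none, and all 16098 matched a RefSeq gene (GRCh38.p14), used for current symbols. The annotation belongs to a whole-transcript array, whereas the kit named is a 3′ kit, which was left unresolved.

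Genes were compared with limma 3.58.1 (statmod 1.5.0, R 4.3.3), fitting group alone, two-sided, with p-values adjusted over all 14884 genes. A fixed rule named the 7 measured target genes, up to 6 changed genes per list, 11 pathway genes whatever their result and the 5 nearest patterns. The target genes and lists were chosen with earlier results of these data known, so no list was tested as a set. The fit was also run on simulated data with independent noise and added shifts. Such data hold no effect shared by the genes of an array, so they cannot show how the fit behaves under one. Alternatives were a repeated quantile normalization, median centring, leaving out dim genes (mean under 4.14), the most variable probe set or the mean of all, a trended and robust prior variance, a block for the replicate number, an exact permutation test and leaving out each array. Those for single probe sets were chosen after seeing the data. Same-numbered arrays did not deviate together (correlations -0.28, -0.06 and -0.18), so the numbers were not taken as pairs. Promoter sequences are from RefSeq (GRCh38.p14).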

Additional observations from a re-analysis of the deposited data

How the results depend on the processing

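AJUBA, ANKRD1 and CRIM1 passed in all 13 alternative fits, and the change of each of the 7 target genes was negative in all 13. CCN2 failed only with the mean of its probe sets. TEAD1 passed in 4, failing beside the single arrays and the block with arrays centred on their median (limma adjusted p = 0.0718) and the most variable probe set (0.0516). Without single arrays the lower genes numbered 349 to 803 and the higher genes 420 to 1096. The numbers of lower and higher members were 3 in each such fit and 0 to 1 for the signature, 3 to 4 and 0 to 2 for the Hippo list, 3 to 6 and 0 to 1 for nuclear partners, 2 to 5 and 1 in each fit for paralogs and 1 to 3 and 0 to 1 for tissue factor partners. Of the target genes 4 to 5 fell, and 2 to 3 of their single probe sets. The share of all probe sets that passed was counted in the main fit only (1.02% lower). Counts of single probe sets in the alternative fits therefore have no background beside them.

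With the replicate block, which shares only a number, 327 genes were lower and 433 higher, and 4 target genes fell. AMOTL2 and TEAD1 lost the call (limma adjusted p = 0.0672 and 0.149). With this block 1 single probe set of the target genes passed, 2 paralogs fell, and 0 genes of the signature and of the Hippo list rose (limma). Without the block, 1 and 2 genes of these 2 lists rose at an adjusted p under 0.05, against 5.23% of all genes. At an unadjusted p under 0.05 without the block, 1 and 6 were higher, against 11.5% of all genes. The block leaves fewer residual degrees of freedom.

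Nuclear partners numbered 6 lower and 1 higher without dim probe sets, beside 869 lower and 894 higher of all 11238 genes kept. They numbered the same with the trended robust variance, beside 954 lower and 977 higher of all 14884 genes. With repeated quantile normalization and with the mean of all probe sets 1 was higher, beside 826 and 781 of all genes. With dim probe sets left out or the trended variance, 1 tissue factor partner was higher, and with the mean of all probe sets 1 Hippo gene was higher. The trended variance called 5 single probe sets of the target genes, against 3 in the main fit. The share of all probe sets called was not counted under that variance, which also called more genes than the main fit (954 against 710 lower). The sign turned for YAP1 with the mean of its probe sets (-0.0086) and the most variable one (-0.17), and for STK4 without 3D replicate 1 or 2D replicate 1 (-0.106 to 0.0575 without single arrays); neither gene passed in any fit. The cause was not tested.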
